A study of Mus musculus with 5 samples.

Results

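The Kelch-like genes described here encode adaptors of a ubiquitin ligase, and their members were taken by gene symbol: every measured Klhl and Kbtbd gene together with Keap1, Ivns1abp, Cul3 and Rbx1. Of 18193 genes measured, 46 met this rule, with 33 Klhl genes, 9 Kbtbd genes and the 4 genes named singly. Where a gene had several probe sets, 1 was chosen by its mean signal over the 5 arrays, the highest being taken, and no gene was left out for being dim. The mean signals of the chosen probe sets ranged from 6.6 to 7774 over the 46 genes; the difference between the groups was not used in the choice.

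Total RNA from 2 sources, both labelled as activated CD8 T cells, was hybridised to one-colour Affymetrix mouse arrays. One source was the in vitro cultured G9C8 clone, which recognises an insulin B peptide; its 3 arrays come from 3 frozen vials of 1 clone. The other was splenocytes of 2 NOD.G9C8 transgenic mice (NOD/LtJ background, aged 4 to 8 weeks), 1 array per mouse, with no sort of the cells named in the labels. Cells of both sources were stimulated with 10 µg/ml of the peptide during 3 days, and a rest of 2 days with 5 IU/ml IL2 followed, so that a cultured clone was set against newly cultured cells treated alike.

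Cullin-RING ligases attach ubiquitin to proteins through a scaffold, the cullin, which binds a RING protein that recruits the ubiquitin-loaded enzyme. In ligases built on the scaffold Cul3, a BTB domain binds the cullin and, in Kelch-like proteins, a propeller of Kelch repeats holds the substrate, so that each adaptor directs the same core to other proteins. The conjugation of Nedd8 to the cullin switches the ligase on, and the COP9 signalosome removes Nedd8 again. The best known adaptor, Keap1, holds the transcription factor Nrf2 at a low level until oxidants or electrophiles modify Keap1.

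Differences are given as clone minus transgenic on the log2(signal + 20) scale, and signals are in the arbitrary units of the arrays. Calls are genes with an adjusted p under 0.05 in limma over all 18193 genes, and a gene is described as dim in a group whose mean signal lay under 88.2, the 40th percentile over probe sets. Signals of different genes come from different probes and were not compared with each other. In bulk RNA, fewer cells of a type and less RNA per cell cannot be told apart.

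The median signals of the 5 arrays were 132.3 to 141.9, and with 5 arrays their number sets the precision. Of 8 CD8 T cell markers measured, all were above the dim level in at least 1 group, with summed signals of 50145 to 56717 on clone and 72181 to 79181 on transgenic arrays; 5 of them (Cd2, Cd247, Cd8a, Cd8b1 and Cd3d) were lower in clone, 0 higher by limma or at an unadjusted p under 0.05, and 3 not called. The 12 myeloid and dendritic cell markers summed to 1838 to 2196 on clone arrays, 8017 on the first and 13368 on the second transgenic array, and 7 of them were lower in clone, 0 higher by limma (1 at an unadjusted p under 0.05) and 5 not called. Lyz2 (3496.8 and 5548.8 on transgenic arrays) and Ccl6 (2029.7 and 4252.7) made up most of the transgenic sums. From the first to the second transgenic array Spi1 (243.0 and 185.7) and the dim Cebpa (38.8 and 34.6) fell. The other myeloid markers rose, Csf1r (520.1 and 568.6) and Adgre1 (257.3 and 274.5) only slightly. The 8 B cell markers summed to 4453 to 5998 on clone and 8597 to 10889 on transgenic arrays, with Ighm and Cd79b lower in clone, Ebf1 higher and 5 not called. The 3 natural killer cell markers summed to 176.3 to 205.6 and 591.6 to 803, with Tyrobp lower in clone and the others not called. Most of the transgenic sums came from Tyrobp, at 379.3 and 568.7, and Ncr1 was dim in both groups. The 5 stromal and endothelial markers summed to 691.1 to 751.5 and 1439 to 1444, with Pecam1 lower and 4 not called. Pecam1, at 1075.5 and 992.5, made up most of the transgenic sums, and 3 of the 5 were dim in both groups. Among the dim ones Col3a1 was higher in clone at an unadjusted p under 0.05 by limma. The single marker genes of this paragraph were named after their values were seen. None of these markers had a mean signal of 0. Their part in the results below was not tested, and their values are repeated where they touch a gene.

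Most members that were called were lower in the clone. Of the 46 genes, 14 were lower in clone, 2 higher and 30 not called, with a median difference of -0.26 against 0.01 over all genes. Called genes made up 34.8% of the members and 29.3% of all genes; those lower in clone were 30.4% of members against 14.7% of all genes, and those higher 4.35% against 14.6%. No test of the list was made, and these shares describe it without setting it apart. An uncalled gene is not shown to be equal in the groups. The signals of the 2 groups did not overlap for 28 members, or 60.9%, against 54.4% of all genes. Leaving aside 14 members that were dim in both groups, 16 of 32 were called, beside 38.7% of all genes not dim in both groups (19.2% higher, 19.5% lower), and 26 did not overlap, beside 64.4%. A gene high in 1 group alone passes that limit through it, so nothing is read from these counts. Without the first transgenic array 11 members were lower and 1 higher, and without the second 12 and 2; over all genes the number called fell from 5337 to 3099 and 3438. A lone transgenic array was then assumed to vary like the clone arrays.

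**Figure D1:**
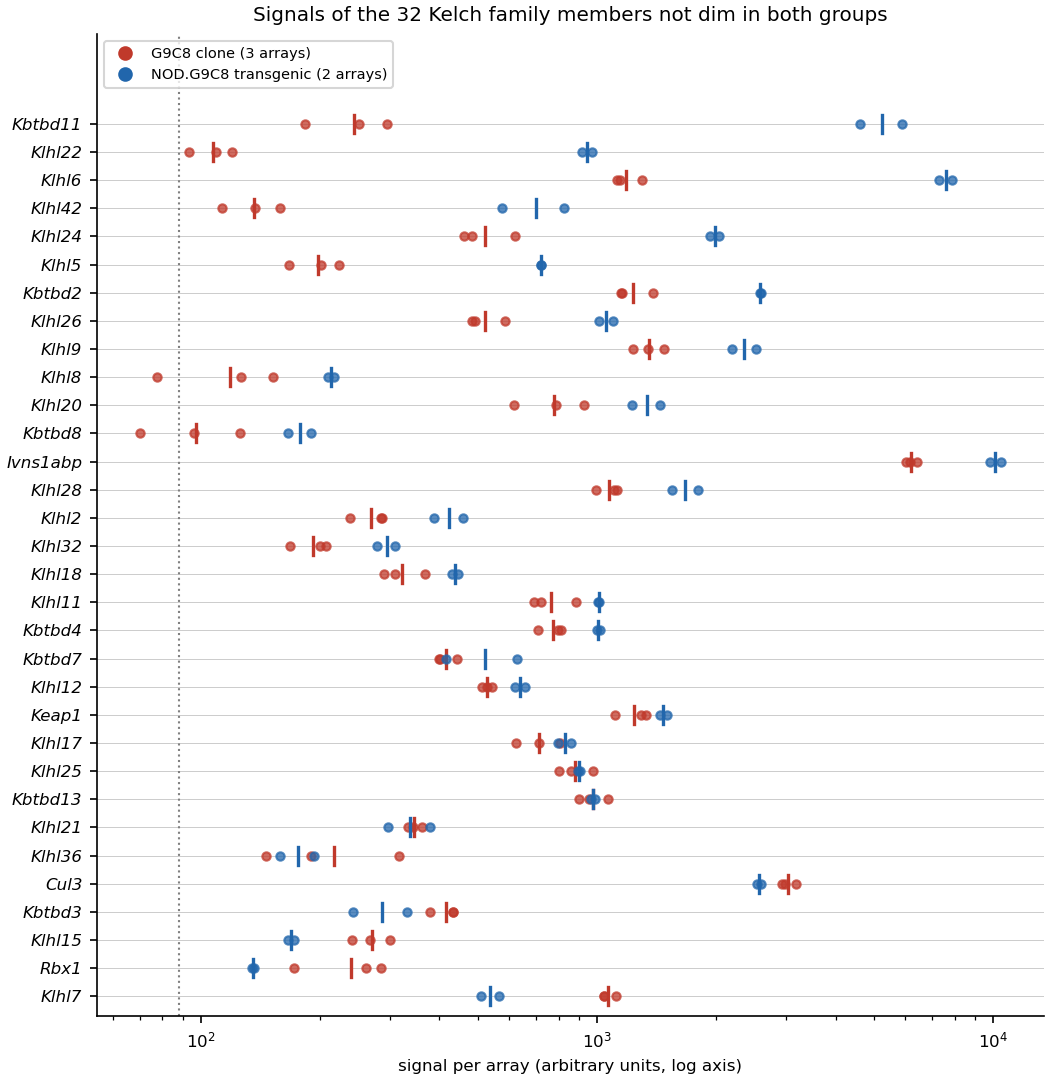
Signal on each array (log axis, arbitrary units) of the 32 members that were not dim in both groups, ordered by difference, with clone arrays in red, transgenic arrays in blue and a vertical bar at each group's mean; the dotted line marks the dim level of 88.2. Kbtbd11, Klhl22 and Klhl6 have the widest gaps between the groups, and Klhl7 and Klhl15 are the called genes whose clone points lie to the right.

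Among the adaptors known from lymphocytes, Klhl6 was bright and lower in clone. It encodes an adaptor that in mice is needed for germinal centre B cell responses. Klhl6 gave signals of 1297, 1141 and 1121 on the clone arrays and 7870 and 7298 on the transgenic arrays. Every clone signal was far below both transgenic ones, which were close to each other. The difference was -2.66 (SE 0.095; 95% confidence interval -2.88 to -2.43; adjusted p = 8.08e-06), or 6.31-fold. On the second transgenic array Klhl6 was 0.927 times the first, the summed B cell markers were 0.790 times and the summed myeloid markers 1.67 times. Most of the B cell sum came from Ighm, at 9178.4 and 7043.6 on transgenic arrays and 3448.6 to 4883.1 on clone. Cd79b gave 654.5 and 594.0 on transgenic arrays, in proportion a smaller fall than that of the sum. Pax5 rose from 139.7 to 249.1 and Ms4a1 from 165.3 to 180.3, and the remaining B cell markers fell. These markers were named after their values were seen. The part of B cells or myeloid cells in the Klhl6 difference was not tested. Klhl14, the other adaptor studied in B cells, was dim in both groups, with clone signals of 23.4 to 44.2 and transgenic signals of 40.8 and 45.8 (difference -0.20, adjusted p = 0.635).

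Of 6 adaptors of cell division and microtubules, 3 were lower in clone, 0 higher by limma or at an unadjusted p under 0.05 and 3 not called, beside 14.7% lower and 14.6% higher over all genes; 1 was dim in both groups. Klhl22 encodes an adaptor reported in human cells to release the mitotic kinase Plk1 from kinetochores and to degrade Depdc5, a brake on mTORC1. It gave 120.1, 109.5 and 93.2 on clone and 914.4 and 971.1 on transgenic arrays. The clone signals lay just above the dim level of 88.2, and the groups were far apart. The difference was -2.92 (SE 0.18; interval -3.34 to -2.50; adjusted p = 6.91e-05), or 7.57-fold; averaged with a second probe set, whose signals were 9.0 to 14.1 on all arrays, it was -1.38 and still called.

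Klhl42, whose product acts on the microtubule-severing protein katanin in human cells, gave 137.3, 158.3 and 113.0 on clone and 575.3 and 823.9 on transgenic arrays. Both transgenic arrays were above every clone array, and the second was 1.43 times the first, beside 1.67 times for the summed myeloid markers, whose part was not tested. Its difference was -2.19 (SE 0.23; adjusted p = 0.000568). Klhl9, a partner of Klhl13 in moving Aurora B on mitotic chromosomes, gave 1345, 1474 and 1231 on clone against 2194 and 2516 (difference -0.79, SE 0.11, adjusted p = 0.00191). Its partner Klhl13 was dim in both groups, at 43.5 to 65.7 on clone and 27.5 and 34.4 on transgenic arrays, with a difference of 0.60 that was not called (adjusted p = 0.130).

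The remaining division adaptors did not pass the test. Klhl18, which acts on Aurora A, gave 289.6 to 367.6 on clone and 431.1 and 446.5 on transgenic arrays, without overlap (difference -0.43, interval -0.80 to -0.05, adjusted p = 0.0877). Klhl21, which acts on Aurora B, gave 332.7 to 360.6 on clone within the transgenic values of 296.3 and 379.7 (difference 0.04, interval -0.35 to 0.43).

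Signalling, metabolism and trafficking adaptors included 3 lower, 1 higher and 4 uncalled genes of 8, where 29.3% of all genes were called. Kbtbd2 encodes the adaptor that in mice degrades p85alpha, the regulatory subunit of PI3 kinase encoded by Pik3r1. It gave 1153, 1155 and 1382 on clone and 2574 and 2593 on transgenic arrays, so that each clone signal was well under both transgenic ones. The difference was -1.06 (SE 0.10; interval -1.31 to -0.82; adjusted p = 0.000463). Klhl20, whose substrates include the tumour suppressors Dapk1 and Pml, gave 928.0, 786.3 and 619.0 against 1444 and 1227 (difference -0.78, SE 0.17, adjusted p = 0.0147). The clone arrays spread widely for this gene but did not reach the transgenic ones; without the first transgenic array the call was lost (difference -0.66, adjusted p = 0.118).

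Klhl2, an actin-binding protein whose ligase degrades WNK kinases, gave 284.4, 286.3 and 237.7 on clone and 387.8 and 458.5 on transgenic arrays. The groups did not overlap, and the difference of -0.61 passed the test (SE 0.17, adjusted p = 0.0332). Without clone array 1 or 3 or transgenic array 1 or 2 it did not pass, with adjusted p of 0.0602, 0.0757, 0.0880 and 0.212. Klhl15, whose product degrades a regulatory subunit of the phosphatase PP2A in human cells, was higher in clone. It gave 240.6, 268.0 and 300.7 on clone and 166.0 and 171.4 on transgenic arrays. The difference was 0.61 (SE 0.19; interval 0.17 to 1.06; adjusted p = 0.0490), and the call was lost without any single array (differences 0.54 to 0.69, adjusted p 0.0638 to 0.191). A second Klhl15 probe set differed by 0.13 (adjusted p = 0.722), and the mean over both by 0.37 without a call (adjusted p = 0.148).

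Klhl15 lies on the X chromosome, as do the dim members Klhl4 and Klhl13, and the groups differed in sex-linked transcripts. Xist, which is transcribed from the inactive X, gave a mean signal of 13885 ± 1061 (SD, n = 3) in clone and 301.3 ± 19.4 (n = 2) in transgenic cells. The Y-linked Eif2s3y gave 5.23 ± 3.20 and 2370 ± 84.2. Of 618 X-linked genes, 16.3% were higher and 11.3% lower in clone, with a median difference of 0.06; of 17516 autosomal genes, 14.6% were higher and 14.8% lower. The part of the X chromosome in the Klhl15 difference was not tested.

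The other 4 genes of this role were not called. Klhl25, whose reported substrates include the ATP citrate lyase Acly, gave a mean of 879.6 ± 90.9 in clone and 902.3 ± 6.79 in transgenic cells (difference -0.04, interval -0.31 to 0.23). Klhl12, which enlarges COPII transport vesicles, gave 511.6 to 542.2 on clone and 621.6 and 659.8 on transgenic arrays without overlap (difference -0.27, interval -0.53 to -0.01, adjusted p = 0.116). Kbtbd7, which with Kbtbd6 limits the Rac activator Tiam1 in human cells, gave 399.0 to 443.6 on clone and 415.6 and 628.0 on transgenic arrays (difference -0.29, interval -0.74 to 0.16). The groups overlapped, and the second transgenic array stood alone. Kbtbd6 was dim in both groups.

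Keap1 itself was not called. It gave 1293, 1328 and 1108 on clone and 1440 and 1498 on transgenic arrays, so that all clone signals were the lower ones by a small margin. The difference was -0.24 (SE 0.11; interval -0.49 to 0.01; adjusted p = 0.140), and a second, dimmer probe set differed by 0.04. Ivns1abp, an actin-binding Kelch protein first found as a partner of an influenza virus protein, was lower in clone. It gave 6437, 6153 and 6040 on clone and 10449 and 9793 on transgenic arrays. The groups were well apart, with a difference of -0.70 (SE 0.08; interval -0.89 to -0.51; adjusted p = 0.000877), or 1.63-fold. Its probe sets disagreed: the second brightest gave 3412 to 3940 on clone and 2787 and 2953 on transgenic arrays, a difference of 0.36 in the opposite direction, which was called when every probe set was tested on its own (adjusted p = 0.0262). The dimmest differed by -1.05 (adjusted p = 0.0154), so that no single direction held for all 3 probe sets of Ivns1abp.

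The core of the ligase was not called in either gene by limma, although both had an unadjusted p under 0.05. Cul3, the scaffold, gave 3173, 2986 and 2923 on clone and 2539 and 2595 on transgenic arrays, a small difference of 0.24 without overlap (SE 0.08; interval 0.05 to 0.42; adjusted p = 0.0617). Its 4 further probe sets differed by -0.56 to 0.16, and the lowest was called by itself in the opposite direction (adjusted p = 0.0102). Over the mean of its 5 probe sets the difference was -0.092. Rbx1, the RING subunit, has 1 probe set of its own, which was moderate at 285.3, 261.6 and 172.0 on clone and 134.6 and 136.0 on transgenic arrays (difference 0.71, SE 0.26, adjusted p = 0.0814). Without clone array 3, the lowest of its group, the difference was 0.92 and called (adjusted p = 0.0286). Another 5 probe sets are shared by Rbx1 and its pseudogene Rbx1-ps and were assigned to neither. The brightest of them gave 6818 to 8507 on clone and 5103 and 6014 on transgenic arrays, again without overlap (difference 0.44). The next brightest gave 6587 to 7433 on clone and 4510.5 and 4530.1 on transgenic arrays, also without overlap (difference 0.62). The dimmer ones differed by 0.72, 0.01 and 0.46, from the brighter to the dimmer.

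**Figure D2:**
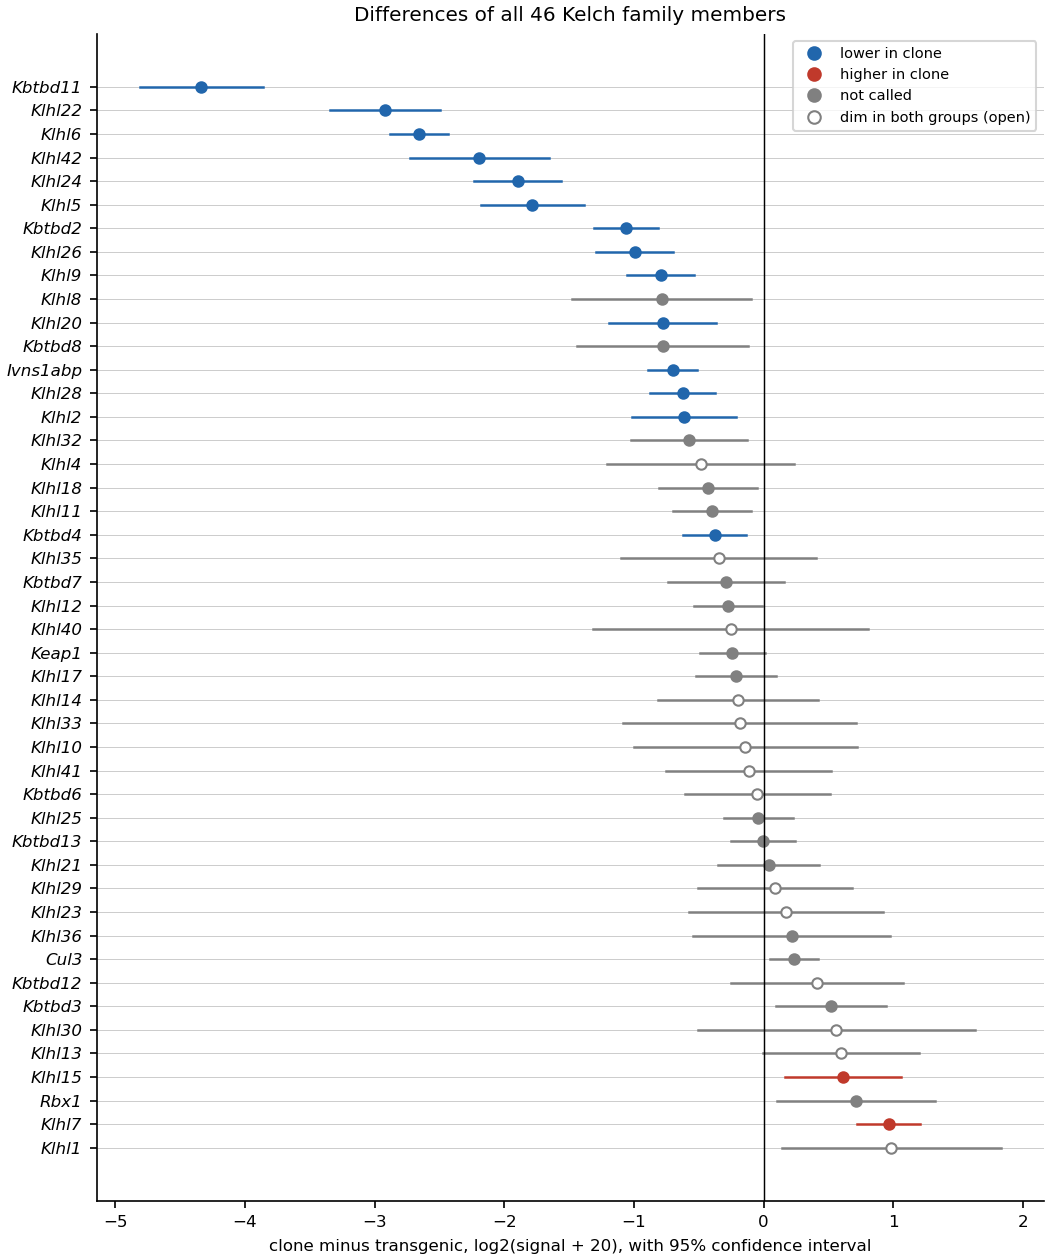
Difference of each of the 46 members, clone minus transgenic on the log2(signal + 20) scale, with the 95% confidence interval of the limma fit as a line. Blue points are lower in clone, red higher, grey not called, and open points are dim in both groups; the 14 blue points run from -4.34 for Kbtbd11 to -0.38 for Kbtbd4, and the 2 red ones are Klhl7 and Klhl15.

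The widest difference of the family belonged to Kbtbd11, a Kelch and BTB protein gene for which no substrate is named here. It gave 250.4, 183.7 and 295.1 on clone and 4612 and 5881 on transgenic arrays. The lowest transgenic signal was many times the highest clone signal. The difference was -4.34 (SE 0.20; interval -4.81 to -3.86; adjusted p = 2.15e-05), or 20.2-fold. A further probe set above the dim level in both groups was lower in clone too (-1.63), another that was dim in clone differed by -2.56, and the fourth was dim in both groups with a difference of 0.01. The mean over all 4 was -2.13. The second transgenic array was 1.28 times the first, against 1.67 times for the summed myeloid markers, whose part was not tested.

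Klhl24 is regulated by its own ubiquitination, and human mutations that stabilise it lead to loss of keratin 14 and fragile skin. It gave 482.8, 620.6 and 460.3 on clone and 1929 and 2033 on transgenic arrays, with a difference of -1.90 (SE 0.14; adjusted p = 0.000150). All 4 further probe sets were lower in clone by differences of -1.83 to -0.90, each called on its own. Klhl5 gave 200.6, 223.1 and 167.3 on clone and 722.3 and 722.4 on transgenic arrays (difference -1.78, SE 0.17, adjusted p = 0.000395). Its transgenic arrays were nearly identical, and all clone arrays were far below them. A second probe set was dim in both groups, and with the mean over both the difference was -1.09 (adjusted p = 0.00355).

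Smaller decreases were seen in 3 further genes. Klhl26 gave 587.3, 483.1 and 491.9 on clone and 1011 and 1100 on transgenic arrays (difference -0.996, SE 0.13, adjusted p = 0.00135). Klhl28 gave 1107, 1122 and 993.2 against 1794 and 1546 (difference -0.63, SE 0.11, adjusted p = 0.00459), and its 3 further probe sets were lower as well, by -0.77 to -0.37. Kbtbd4, an adaptor for the CoREST corepressor complex, gave 798.0, 809.1 and 710.0 against 999.0 and 1018 (difference -0.38, SE 0.10, adjusted p = 0.0313). In all 3 genes the clone signals lay below both transgenic ones. The call of Kbtbd4 was lost without clone array 1 or 3 or transgenic array 1 or 2 (adjusted p 0.0593, 0.0723, 0.134 and 0.152).

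Klhl7 was the member with the clearest increase. It encodes an adaptor that is mutated in an inherited form of human retinal degeneration. It gave 1041, 1042 and 1116 on clone and 509.2 and 565.4 on transgenic arrays, with tight groups that lay far apart. The difference was 0.96 (SE 0.10; interval 0.72 to 1.21; adjusted p = 0.000635), or 1.95-fold, on a probe set of a type that can cross-hybridize. Without such probe sets the difference was 0.59 and called (adjusted p = 0.00388).

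Of the 16 uncalled genes that were not dim in both groups, 11 had negative and 5 positive differences, from -0.79 for Klhl8 to 0.71 for Rbx1, and 9 of them had an unadjusted p under 0.05. Klhl8 (77.7 to 152.1 on clone, 209.6 and 216.2 on transgenic arrays; adjusted p = 0.0887) and Kbtbd8, a factor of ribosome production in neural crest cells (70.2 to 125.3 against 165.8 and 189.5; difference -0.78, adjusted p = 0.0800), did not overlap between the groups. Klhl32 (-0.57, adjusted p = 0.0618) and Klhl11 (-0.40, adjusted p = 0.0555) were also close to the threshold, and Klhl11 was called without clone array 2 (-0.50, adjusted p = 0.0132). A second Klhl11 probe set, at 546.4 to 615.6 on clone and 555.5 and 642.8 on transgenic arrays, differed by -0.043 (adjusted p = 0.833), and the mean over its 3 probe sets by -0.0020 (adjusted p = 0.995). Kbtbd3 gave 379.4 to 434.0 on clone and 241.7 and 331.1 on transgenic arrays (difference 0.52, adjusted p = 0.0704). Klhl36 (0.22, interval -0.54 to 0.98) and the actin-binding Klhl17 (-0.21, interval -0.52 to 0.10) overlapped between the groups.

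Of 7 members known from muscle, testis, neurons or skin, 4 were dim in both groups and Klhl24 alone was called. Over all 18193 genes, 5167 were dim in both groups and 29.3% were called. In all, 14 members were dim in both groups: Klhl1, Klhl4, Klhl10, Klhl13, Klhl14, Klhl23, Klhl29, Klhl30, Klhl33, Klhl35, Klhl40, Klhl41, Kbtbd6 and Kbtbd12. Their signals ran from 1.30 to 85.2, and 0 of them were called by limma, with 1, Klhl1, at an unadjusted p under 0.05; of all 5167 genes dim in both groups, 5.63% were called. Klhl40 and Klhl41, which stabilise muscle filaments, and Klhl10, needed for sperm formation in mice, are among them. The muscle gene Kbtbd13 was represented by a probe set of a type that can cross-hybridize, at 903.0 to 1069 on clone and 967.9 and 986.8 on transgenic arrays (difference -0.01, interval -0.25 to 0.24). Its other probe set was dim, at 75 to 85.6 on clone and 34.1 and 25.7 on transgenic arrays, and on that probe set, once cross-hybridizing ones were left out, the difference was 1.01 (adjusted p = 0.0189), so that its level in these cells is uncertain.

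**Figure D3:**
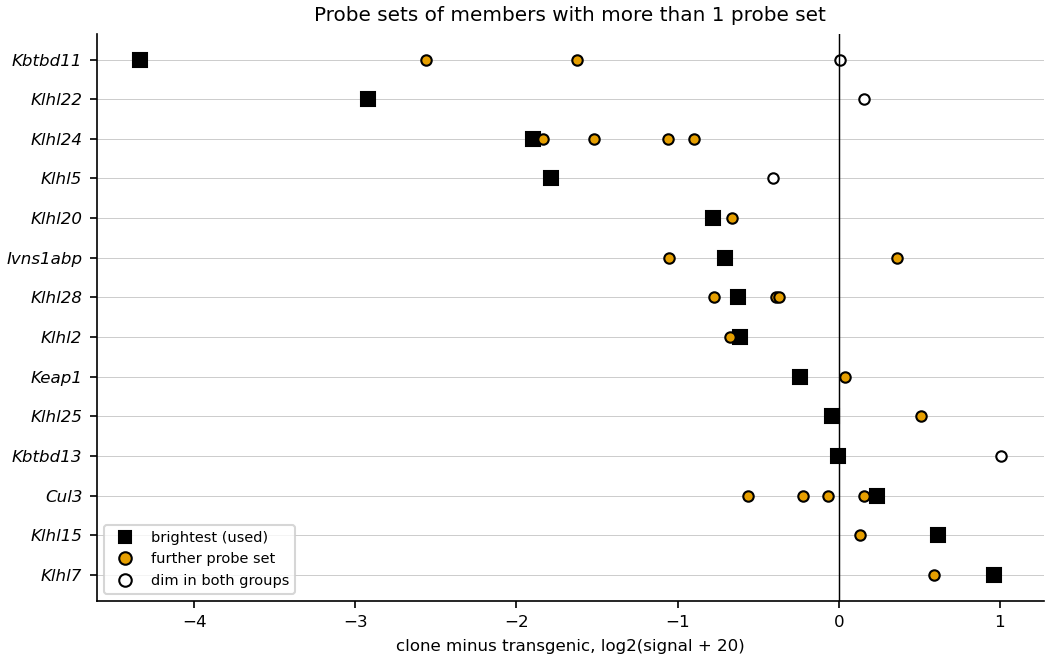
Differences, clone minus transgenic on the log2(signal + 20) scale, of every probe set of the called members, Cul3, Keap1, Klhl25 and Kbtbd13 that have more than 1; squares are the brightest probe set, circles the others, and open circles are dim in both groups. Further probe sets of Klhl24, Klhl28 and Klhl20 lie on the side of the brightest one, and those of Ivns1abp and Cul3 lie on both sides of 0.

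Among uncalled members, Klhl25 had a second probe set with a called difference of 0.51 (adjusted p = 0.0262) beside its uncalled brightest one.

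The promoters of the called members were read because 14 of them were lower together. RefSeq promoters of GRCm38.p6, 250 bases before to 50 after a gene's start, were held for 39 of the 46 members (52 promoters). They had a median GC content of 60.7% and a median of 21 CG dinucleotides, against 58.3% and 16 over 18109 promoters of measured genes. Motifs of 7 factor classes important in T cells were searched on both strands, each as fixed letters. The ETS letters CCGGAAG, which contain a CG, were in 23.1% of member promoters and 13.0% of all promoters, and the part of base composition was not tested. Counted by gene, with a match in any start, 9 of the 39 members held them. Among these were 5 of the 11 genes lower in clone that had a promoter. No share by gene was taken over all genes, so the counts by gene have no background beside them. The antioxidant response element TGACNNNGC was in 17.3% against 13.9%, AP-1 (TGANTCA) in 7.69% against 6.38% and the E-box CACCTG in 19.2% against 20%. RUNX letters (TGTGGTT) were in 1.92% against 4.22%, with Klhl5 the gene that held them. The TCF1 letters CTTTGAT and the FOXO letters TGTTTAC were in 0 of 52 member promoters, against 2.93% and 2.98% of all promoters. The AP-1 and antioxidant letters can overlap each other, and a match describes the sequence and is not a binding site.

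The following promoters are those of Klhl6, the member with the smallest adjusted p, of 3 lower members with the ETS letters, and of Klhl7, the most clearly higher member. They are written 5′ to 3′ along the gene's strand, with any searched motif in capitals; for Klhl22 and Ivns1abp, which have 2 starts in RefSeq, the first is shown.
Klhl6, chr16:19983000-19983299, minus strand: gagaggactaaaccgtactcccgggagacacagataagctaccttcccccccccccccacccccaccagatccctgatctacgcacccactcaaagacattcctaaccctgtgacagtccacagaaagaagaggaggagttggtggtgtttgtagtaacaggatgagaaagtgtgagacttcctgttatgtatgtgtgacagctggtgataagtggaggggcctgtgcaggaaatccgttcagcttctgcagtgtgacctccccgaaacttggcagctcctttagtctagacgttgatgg
Klhl22, chr16:17759391-17759690, plus strand: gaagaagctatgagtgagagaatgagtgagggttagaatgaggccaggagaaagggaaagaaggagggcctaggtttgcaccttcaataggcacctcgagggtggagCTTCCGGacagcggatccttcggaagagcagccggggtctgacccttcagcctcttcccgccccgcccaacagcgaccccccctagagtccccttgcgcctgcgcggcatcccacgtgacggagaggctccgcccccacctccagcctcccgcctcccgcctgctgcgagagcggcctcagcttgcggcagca
Klhl20, chr1:161131430-161131729, minus strand: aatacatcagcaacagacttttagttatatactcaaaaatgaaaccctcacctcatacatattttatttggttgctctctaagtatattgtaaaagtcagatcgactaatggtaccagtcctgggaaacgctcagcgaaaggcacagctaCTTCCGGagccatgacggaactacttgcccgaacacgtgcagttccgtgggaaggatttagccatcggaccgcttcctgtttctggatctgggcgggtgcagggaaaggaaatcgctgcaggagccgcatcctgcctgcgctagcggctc
Ivns1abp, chr1:151344236-151344535, plus strand: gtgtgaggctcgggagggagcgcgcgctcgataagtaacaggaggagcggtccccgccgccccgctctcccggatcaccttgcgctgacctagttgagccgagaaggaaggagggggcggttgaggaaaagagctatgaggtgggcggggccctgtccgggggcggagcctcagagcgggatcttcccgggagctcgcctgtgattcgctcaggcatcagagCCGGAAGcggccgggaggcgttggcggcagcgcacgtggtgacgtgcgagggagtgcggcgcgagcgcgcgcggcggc
Klhl7, chr5:24100340-24100639, plus strand: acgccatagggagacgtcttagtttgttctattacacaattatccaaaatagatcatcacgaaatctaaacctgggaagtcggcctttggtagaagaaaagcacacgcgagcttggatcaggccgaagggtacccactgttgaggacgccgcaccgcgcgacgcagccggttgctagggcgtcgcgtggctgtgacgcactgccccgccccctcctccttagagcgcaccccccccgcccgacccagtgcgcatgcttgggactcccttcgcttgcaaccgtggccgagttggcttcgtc
The capitals mark the ETS letters on the reverse strand 143 bases before the start of Klhl22 and 100 before that of Klhl20, and on the gene's strand 28 before that of Ivns1abp. The promoters of Klhl6 and Klhl7 held none of the 7 motifs in this window.

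Of 23 measured genes of Nedd8 conjugation and cullin exchange, which switch the ligase on and off, 11 were higher in clone, 2 lower and 10 not called, beside 14.6% higher and 14.7% lower over all genes. Their median difference was 0.34 against 0.01 over all genes. Of the 23, 0 were dim in both groups, and of all genes not dim in both groups 19.2% were higher and 19.5% lower. Dcun1d3, a Nedd8 ligase partner, gave 725.4, 670.0 and 1024 on clone and 386.4 and 418.8 on transgenic arrays (difference 0.94, SE 0.19, adjusted p = 0.00927); its relative Dcun1d1 was lower (-0.82, adjusted p = 0.00143). Commd1 (0.93, adjusted p = 0.00765) and the signalosome subunit Cops4 (0.77, adjusted p = 0.00227) were higher. Of the 9 COP9 signalosome genes, grouped after their values were seen, 6 were higher, 0 lower by limma or at an unadjusted p under 0.05 and 3 not called, a count that is a description of a group formed from its values, beside 14.6% higher over all genes. Among the genes named, the Dcun1d3 call was lost without the first and the Commd1 call without the second transgenic array (adjusted p 0.0718 and 0.0640).

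Of 7 further cullins, Cul7 (437.3 and 416.3 on transgenic arrays, 130.0 to 165.2 on clone; difference -1.37, adjusted p = 0.00200) and Cul4b (-1.07, adjusted p = 0.000432) were lower in clone, Cul4a was higher (0.75, adjusted p = 0.0227) and 4 were not called. Over all genes, 14.7% were lower and 14.6% higher, and of genes not dim in both groups 19.5% and 19.2%. The Cul4a difference was 0.41 and uncalled without the first transgenic array, which was the lowest of the 5, and the call was also lost without clone array 1 or 3 (adjusted p 0.0684 and 0.0679).

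Of 24 measured adaptors of Cul3 with a BTB domain but no Kelch name, 8 were lower in clone, 0 higher by limma and 16 not called. Their median difference was -0.21, and 1 was higher at an unadjusted p under 0.05. The share called in either direction is near the 29.3% of all genes. By direction, 14.7% of all genes were lower and 14.6% higher. Kctd17, an adaptor for a centriolar protein in human cells, gave 54.3 to 114.7 on clone and 443.2 and 515.3 on transgenic arrays (difference -2.36, SE 0.30, adjusted p = 0.00130). Rcbtb1 (-1.40), Abtb2 (-0.94) and Rcbtb2 (-0.83) followed; the Rcbtb1 difference was -0.57 and not called with the mean over its probe sets (adjusted p = 0.0814), and the Abtb2 call was lost without the second transgenic array (adjusted p = 0.115). Of 3 BTB-Kelch genes with other names, Enc1 was lower (-1.27, adjusted p = 0.00237), 1 was not called, and Lztr1, an adaptor for Ras-family GTPases, was higher (1.00, adjusted p = 0.00200), but by 0.32 and uncalled without cross-hybridizing probe sets (adjusted p = 0.0544). The same shares over all genes, 14.7% lower and 14.6% higher, stand beside these 3.

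**Figure D4:**
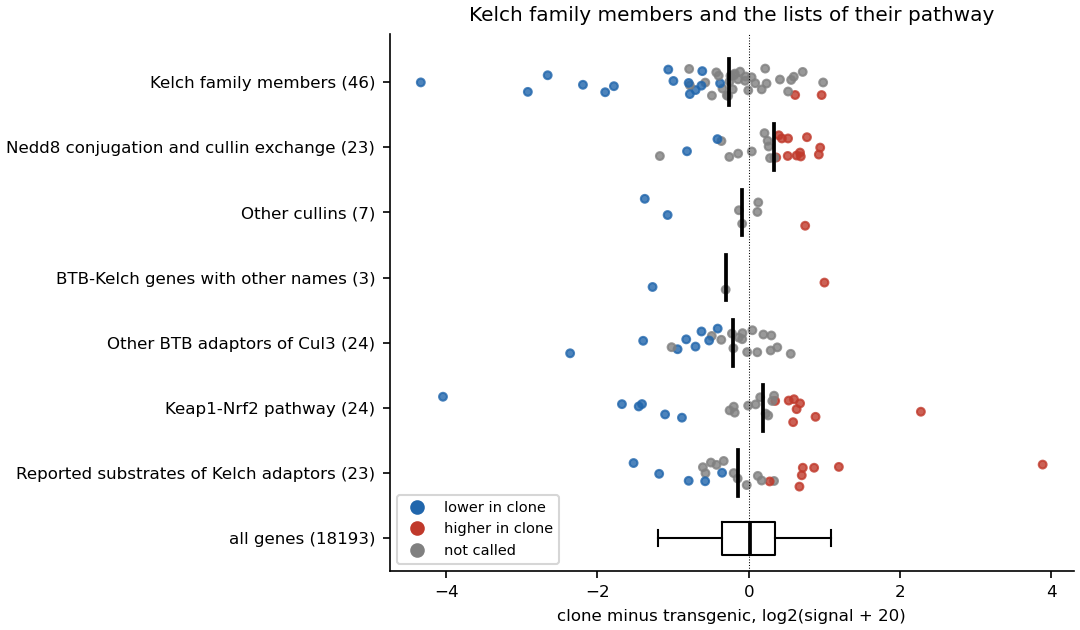
Differences, clone minus transgenic on the log2(signal + 20) scale, of the Kelch family members and 6 lists of their pathway, with the number of measured genes in brackets, a black bar at each median and blue, red and grey points for lower, higher and uncalled genes; the box gives the quartiles and the whiskers the 5th and 95th percentiles of all genes. The medians of the members (-0.26) and of the Nedd8 list (0.34) lie on opposite sides of that of all genes (0.01).

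Of 24 measured genes of the Keap1-Nrf2 pathway, 8 were higher in clone, 6 lower and 10 not called, beside 14.6% higher and 14.7% lower over all genes, with a median difference of 0.19. Nfe2l2, which encodes Nrf2, is named after its values were seen: it gave 759.5, 571.9 and 530.8 on clone and 1698 and 1632 on transgenic arrays (difference -1.41, SE 0.16, adjusted p = 0.000775). The Nrf2 target Osgin1, a growth inhibitor induced by oxidative stress, was the most increased, at 1553, 2267 and 1299 against 319.0 and 335.2 (difference 2.28, SE 0.22, adjusted p = 0.000414). Srxn1 (0.88, adjusted p = 0.00526), Txn1 (0.68, adjusted p = 0.00144), Sqstm1 (0.63, adjusted p = 0.00647) and Gclc (0.60, adjusted p = 0.00588) of this list were higher as well. Bach1 (-1.11, adjusted p = 0.000546) and Mafk (-0.88, adjusted p = 0.00610) of the list were lower, and Gclm (-0.25, adjusted p = 0.150) was not called. Srxn1 and the genes listed after it up to Gclm were named after their values were seen. The Nrf2 targets Hmox1 and Nqo1 were lower in clone, so the list had no single direction. Hmox1, the haem-degrading enzyme, was dim in clone at 16.2, 13.1 and 59.1 and gave 585.2 and 912.6 on transgenic arrays (difference -4.04, SE 0.43, adjusted p = 0.000647). Macrophages express Hmox1 strongly, and its second transgenic array was 1.56 times the first, beside 1.67 times for the summed myeloid markers; their part in this difference was not tested. Nqo1 (23.5 to 41.6 against 142.9 and 134.0; difference -1.68, adjusted p = 0.00343) and the cystine transporter gene Slc7a11 (-1.45, adjusted p = 0.0395) were also dim in clone, and the Slc7a11 call was lost without clone array 1 or 3 or transgenic array 1 or 2 (adjusted p 0.0822, 0.0994, 0.129 and 0.186).

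**Figure D5:**
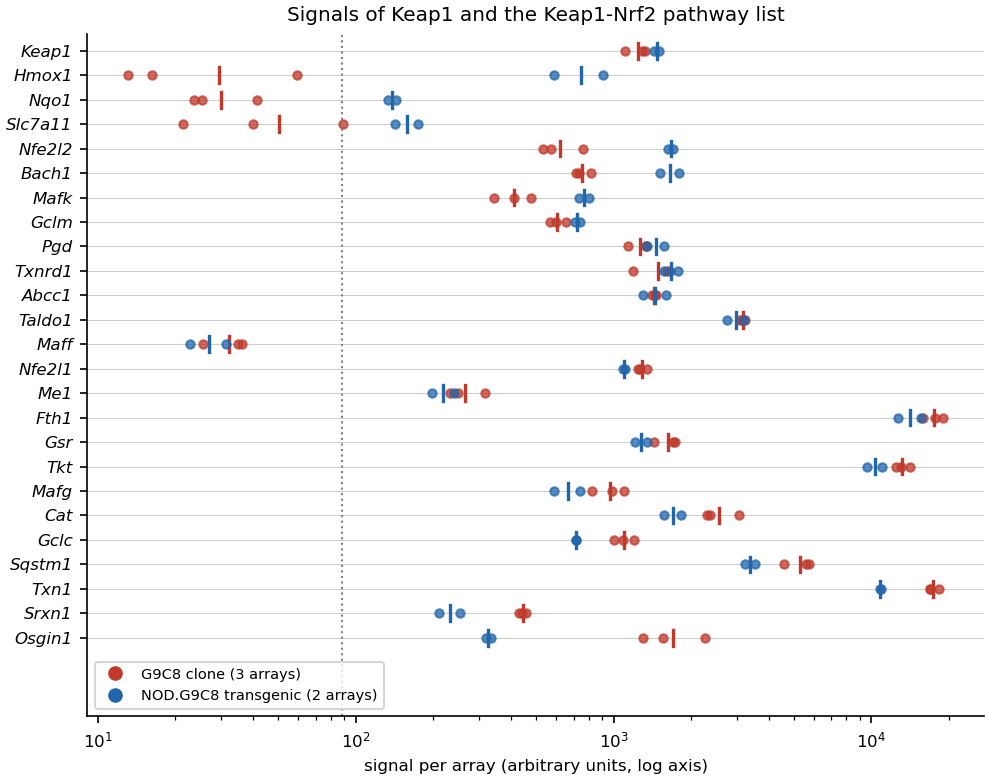
Signal on each array (log axis, arbitrary units) of Keap1 and the 24 measured genes of the Keap1-Nrf2 list, ordered by difference, with clone arrays in red, transgenic arrays in blue, bars at group means and a dotted line at the dim level of 88.2. Hmox1, Nqo1 and Slc7a11 have their clone means under that line, Nfe2l2 is lower in clone above it, and Osgin1 is higher.

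Of 23 measured genes that encode reported substrates of Kelch adaptors, 7 were higher in clone, 5 lower and 11 not called, beside 14.6% higher and 14.7% lower over all genes, with a median difference of -0.15. The RNA level does not measure the stability of the protein. Tiam1, a Rac activator, was dim in transgenic cells and higher in clone, at 820.9, 752.5 and 707.4 against 36.2 and 29.4 (difference 3.89, SE 0.18, adjusted p = 2.17e-05), beside uncalled Kbtbd7 and dim Kbtbd6. Pik3r1, whose product Kbtbd2 targets, was lower like Kbtbd2 itself, at 942.9, 848.2 and 731.8 against 2512 and 2373 (difference -1.52, SE 0.12, adjusted p = 0.000186). Pml, a Klhl20 substrate, was lower too (-1.18, adjusted p = 0.000561). Plk1, a Klhl22 substrate, was higher at 1704, 881.3 and 1332 against 425.8 and 685.4 (1.19, SE 0.30, adjusted p = 0.0224), a call that was lost without clone array 1 or 3 or transgenic array 1 (adjusted p 0.0587, 0.0670 and 0.159). Over the 6 pathway lists together, 28 of 104 measured genes were higher and 24 lower, beside 14.6% higher and 14.7% lower over all genes. Of the 104, 100 were not dim in both groups, and of all such genes 19.2% were higher and 19.5% lower. No test of the lists was made.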

How the data were processed

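Each of 5 samples was hybridised to 1 array, with 8 µg of RNA labelled according to the labels' protocols. The authors deposited a linear intensity per probe set, made with GCOS per the submitters' processing notes. These values were used as deposited, since the 2% trimmed mean was 500 on every array. No detection calls were used here.

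Of 45101 probe sets, 34945 carry 1 gene symbol in the platform annotation and 932 several; only the former name a gene. The brightest probe set stood for each of 18193 genes. Groups from the sample titles (3 clone, 2 transgenic) entered 1 linear model per gene, fitted by limma 3.58.1 under R 4.3.3 on 3 residual degrees of freedom. Variances were moderated by eBayes, allowing a trend on mean signal, and the two-sided p-values received a Benjamini-Hochberg adjustment across the 18193 genes. The fit was tested on simulated data. The labels describe separate vials and mice, so p-values cover vials of 1 clone and 2 mice. All 46 member symbols matched RefSeq.

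Members and lists were chosen with earlier results of these data known. Named are all members that were called or not dim and, per list, up to 4 called genes of the largest difference; where others are named, that is said. Alternatives were 16 settings of scaling, pseudocount, floor, filter, probe sets, eBayes, replicate block and arrays left out; testing every probe set was added after seeing the data.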

Additional observations from a re-analysis of the deposited data

How the results depend on the processing

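Of the 16 called members, 12 were called with the same direction in all 16 alternatives. Kbtbd4, Klhl15, Klhl2 and Klhl20 lost the call in 7, 9, 7 and 2 of them, and none of the 16 members reversed. Klhl15 was tested in 15 alternatives and called in 6, because its mean signal of 229.3 fell under the filter at the 60th percentile. The number of called members was 12 to 16 with 1 array left out, and 14 to 22 in the other settings, the highest with the filter at the 40th percentile, which tests fewer genes. Under that filter 22 of 32 tested members were called, beside 5448 of 12446 genes. With every probe set tested, 19 members had a called probe set. A gene with several probe sets, as 26 members have, is then tested several times. No such count was taken over all genes, so the 19 members have no background beside them. Over all genes, 3099 were called without the first and 3438 without the second transgenic array, and 4465 to 5234 with 1 clone array left out. Of the pathway lists, 34 to 54 genes were called with 1 array left out. The replicate numbers did not pair the samples (correlations of deviations -0.01 and -0.05); with the replicate block 4153 genes, 14 members and 44 list genes were called. Uncalled values changed sign for Cul3 with the mean over probe sets (-0.092), Klhl21 with that mean (-0.033), Klhl25 with quantile normalization (0.018), that mean (0.24) and the block (0.023), and Kbtbd13 with quantile normalization (0.047), that mean (0.50, called), without cross-hybridizing probe sets (1.01, called) and with the block (0.0075). With 1 array left out, the difference ran from -0.073 to 0.046 for Kbtbd13, -0.13 to 0.21 for Klhl21, -0.12 to 0.023 for Klhl25 and -0.064 to 0.44 for Klhl36. The cause was not tested. Signals under the dim level limit what can be said of 14 members.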

Other observations

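Klhl6 and Klhl24, both lower in clone, are next to each other on chromosome 16 in GRCm38.p6, with no other measured gene between them. Of the 5 measured genes on each side of Klhl6, 3 were lower and 0 higher in clone: Klhl24, B3gnt5, a glycosyltransferase gene of glycolipid synthesis (mean signal 55.8 in clone and 730.7 in transgenic cells; difference -3.32, SE 0.22, adjusted p = 8.86e-05), and the transporter gene Abcc5 (-0.72, SE 0.12, adjusted p = 0.00472). Between the 2 members and Abcc5 lie Yeats2 (-0.33, adjusted p = 0.157), Map6d1, which was dim, and Parl (-0.02, adjusted p = 0.920), which were not called. Around Kbtbd11 on chromosome 8, 3 of 10 neighbours were lower and 0 higher, among them Tdrp (34.0 in clone and 1186 in transgenic cells; difference -4.54, SE 0.32, adjusted p = 0.000123). The 10 neighbours of Klhl22 and the 10 of Klhl42 held 0 called genes in limma, with 1 each at an unadjusted p under 0.05 (Ccdc74a and Ergic2). These neighbours were looked up after the members' values were seen, and no test of neighbourhood was made; 29.3% of all genes were called.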
